A study of Mus musculus with 32 samples.

Results

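The chromatin around Tat and Tdo2 was examined in the liver of adrenalectomized mice. These windows of the mouse genome build mm9 were used: chr8:112460000-112580000 for Tat (120 kb) and chr3:81700000-81840000 for Tdo2 (140 kb), and every deposited interval with its centre in them was taken. They held 52 and 49 intervals, 101 of the 180036 in the 5 interval lists. The donors of the livers were male C57BL/6 mice, 8 weeks old, whose adrenal glands, the main source of their own glucocorticoid, had been removed on both sides. The animals were injected with 1 mg/kg dexamethasone, a synthetic glucocorticoid carried in a cyclodextrin complex, or with cyclodextrin vehicle, and the series' design gives 1 h of dexamethasone. The lists used were peaks of the glucocorticoid receptor (GR), peaks of C/EBPβ after vehicle and after dexamethasone, and DNase I hypersensitive sites (DHS), which are stretches of accessible chromatin, after vehicle and after dexamethasone. The GR list names no treatment. Each list is 1 set of positions with no height, read count or replicate, so a difference between 2 lists has no replicate check, the read depth is unknown and no test was made on either locus. Whole liver was used, so the cell type that carries a site is not known.

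Tat encodes tyrosine aminotransferase, the enzyme that starts the breakdown of tyrosine. Tdo2 encodes tryptophan 2,3-dioxygenase, which starts the breakdown of tryptophan along the kynurenine route. Both enzymes are made mainly by hepatocytes and are textbook examples of liver genes induced by glucocorticoids, which direct amino acids from protein towards glucose. GR is a hormone-dependent transcription factor that moves to the nucleus when it binds its ligand and attaches to DNA, often far from the gene it controls. C/EBPβ, a member of the leucine zipper family, binds at many enhancers of hepatocytes.

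In the RefSeq table of build GRCm38.p6, Tat (gene 234724) lies between the protein-coding genes Marveld3 and Chst4, and Tdo2 (gene 56720) between Ctso and Asic5. No mm9 annotation was used here, so the intervals below are given by position and are not assigned to a promoter, exon or intron, nor to a gene among these neighbours. For orientation, the 250 bases before the RefSeq start of each gene are shown, on GRCm38.p6 positions that cannot be set beside the mm9 positions of the peaks (Tat chr8:109990186-109990435, plus strand, and Tdo2 chr3:81975729-81975978, minus strand). Capitals mark matches to the GR half-site AGAACA, to the core of the palindromic GR site ACANNNTGT, to the C/EBP site TTGCNNAA and to TATAAA, the letters of a TATA box. Matches were taken on either strand and anywhere in the 250 bases.

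Tat: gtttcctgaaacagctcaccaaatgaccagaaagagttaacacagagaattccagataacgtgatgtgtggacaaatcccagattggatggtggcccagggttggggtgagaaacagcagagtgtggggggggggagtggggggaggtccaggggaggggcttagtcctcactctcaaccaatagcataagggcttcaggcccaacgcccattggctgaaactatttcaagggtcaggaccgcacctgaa
Tdo2: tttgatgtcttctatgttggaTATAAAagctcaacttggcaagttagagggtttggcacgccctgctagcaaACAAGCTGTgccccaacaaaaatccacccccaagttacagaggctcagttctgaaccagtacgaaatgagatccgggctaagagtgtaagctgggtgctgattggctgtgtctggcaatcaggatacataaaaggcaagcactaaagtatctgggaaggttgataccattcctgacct

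These letters held 0 matches before Tat. Before Tdo2 they held 1 match to the palindromic core (bases -178 to -170 from the RefSeq start) and 1 to the letters TATAAA (bases -229 to -224). Whether either match is used was not tested. Over the 32851 RefSeq promoters of the same length, the GR half-site was present in 16.1%, the palindromic core in 5.84% and the C/EBP site in 9.56%. The letters TATAAA were present at any position in 12.4%.

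Each locus held 9 GR peaks. That is a dense group: 82 of 20604 autosomal windows of 120 kb (0.398%) held at least 9, and 106 of 17664 windows of 140 kb (0.600%) did. The median window of either size held 0 GR peaks. The densest window held 17 at 120 kb and 19 at 140 kb, so the 2 loci were high but were not the extreme of the list.

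**Figure D1:**
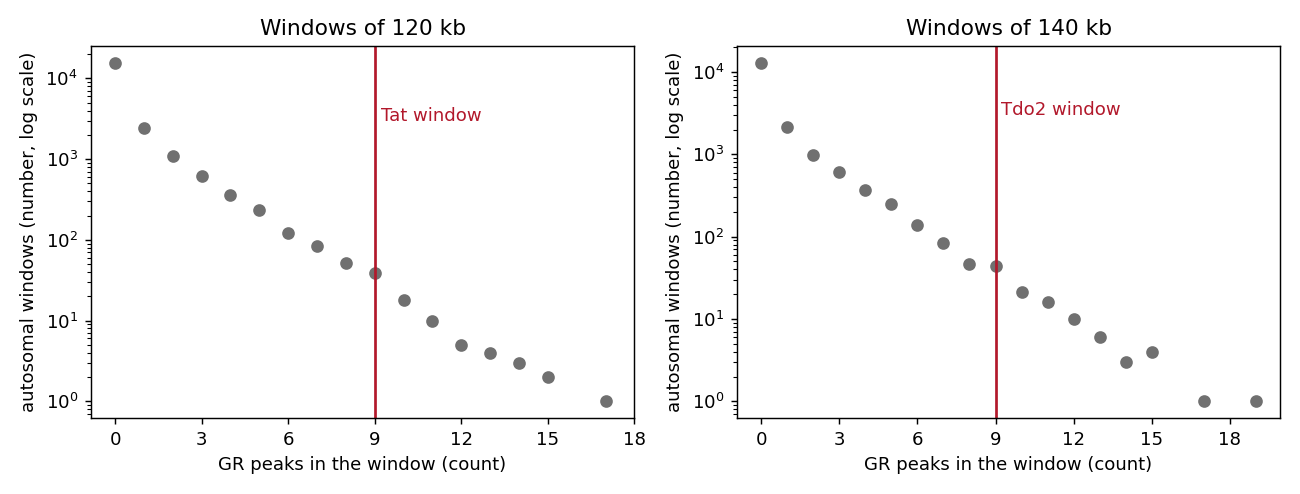
Number of autosomal windows (log scale) by the number of GR peaks they held, for windows of the Tat size (left) and the Tdo2 size (right); the line marks the 9 GR peaks of each locus. Most windows held 0 GR peaks, and 82 and 106 windows lay at or beyond the line.

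The other lists were also well filled at both loci, though less far from the usual window. The Tat window held 8 C/EBPβ peaks after vehicle and 9 after dexamethasone, and 1.76% and 1.71% of windows held at least as many. It held 12 vehicle DHS and 14 dexamethasone DHS, reached by 3.04% and 2.31% of windows. The Tdo2 window held 8 C/EBPβ peaks in each list, reached by 2.54% and 3.62% of windows. It held 10 vehicle DHS and 14 dexamethasone DHS, reached by 8.76% and 3.73% of windows.

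The share of DHS holding a GR peak was higher at both loci than over the whole lists. This share follows in part from the 9 GR peaks in each window and is not a separate trait. At Tat a GR peak lay in 8 of 12 vehicle DHS and at Tdo2 in 5 of 10, while 15.4% of all vehicle DHS held one. In the dexamethasone list 8 of 14 DHS at Tat and 7 of 14 at Tdo2 held a GR peak, beside 16.7% of all.

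The same number of GR peaks was laid out differently at the 2 loci. At Tat the 9 centres spanned 31.4 kb, or 26.1% of the window, with a median of 2614 bp between neighbours. At Tdo2 they spanned 88.4 kb, or 63.2% of the window, with a median of 8074 bp. For all GR peaks the median distance to the nearest other GR centre was 8732 bp (quartiles 2028 and 39364 bp), beside 1739 bp at Tat and 2434 bp at Tdo2. Shorter distances than for all GR peaks follow in part from the high number of GR peaks in each window.

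**Figure D2:**
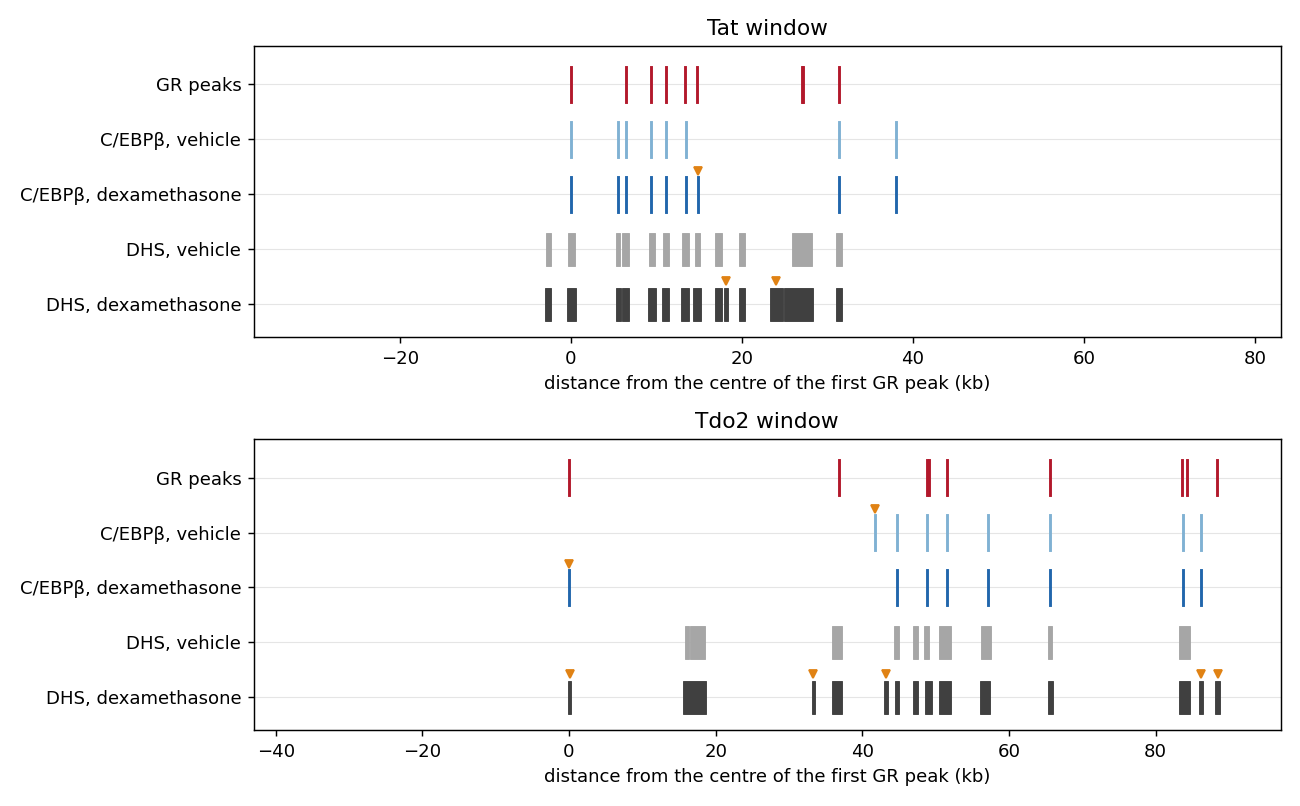
Intervals of the 5 lists along the Tat window (top) and the Tdo2 window (bottom), by distance in kb from the centre of the first GR peak. DHS are drawn as boxes to scale, peaks as lines at their centres, and an orange triangle marks an interval that overlapped none in the other treatment's list. All 9 GR peaks at Tat lie over a vehicle DHS, and at Tdo2 the first and the last do not.

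At Tat every GR peak lay in chromatin that was already accessible in vehicle livers. All 9 overlapped a vehicle DHS by at least 1 bp, beside 79.2% of all GR peaks, and 0 lay in a DHS found after dexamethasone alone (dex-only DHS, sharing no base with a vehicle DHS), beside 15.6% of all. At Tdo2 the count was 7 of 9 in vehicle DHS and 2 of 9 in dex-only DHS, which is near those shares. The 9 at Tat had all their 150 bp inside the vehicle DHS. With 9 peaks a locus, the 2 loci differ by 2 peaks. Whether Tat departs from the shares over all GR peaks was not tested.

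For description, the GR peaks at Tat are taken as a row, a pair and a last peak, in the order of their mm9 positions. The gaps alone do not set these groups. The first and second peaks of the row were 6441 bp apart, while the last peak was 4194 bp from the pair. The row was 6 peaks within 14792 bp (centre to centre), starting at 112496961, 112503402, 112506318, 112508057, 112510368 and 112511753 on chromosome 8. Each had a vehicle DHS of its own, between 626 and 864 bp wide. After a gap of 12181 bp came the pair, starting at 112523934 and 112524125, whose centres were only 191 bp apart. The last peak started at 112528319, and beyond it the window held only a C/EBPβ peak found in both treatments, with 0 intervals in its final 44907 bp.

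The pair sat in the widest accessible site of the Tat window. This DHS ran from 112522922 to 112525258 after vehicle (2336 bp) and from 112521929 to 112525345 after dexamethasone (3416 bp). Of all vehicle DHS 99.9% were no wider. Of the 1080 bp added, 993 bp lay on the side of lower positions. There, 51 bp away, the dexamethasone list held a further dex-only DHS of 1589 bp (112520289 to 112521878), with 0 GR and 0 C/EBPβ peaks. Nearly the whole stretch from 112520289 to 112525345 was thus listed as accessible after dexamethasone, and its lower part was not listed after vehicle. Neither GR peak of the pair overlapped a C/EBPβ peak. The nearest C/EBPβ centres were 4412 and 4221 bp away in both lists, which give shared peaks the same coordinates.

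At Tdo2 the GR peaks were spread over single sites and 2 close pairs. The first started at 81742889 on chromosome 3, 36816 bp from the next (centre to centre), in a dex-only DHS of 508 bp whose nearest vehicle DHS was 15492 bp away. It overlapped a C/EBPβ peak (81742933 to 81743083) that only the dexamethasone list held, while in the vehicle list no C/EBPβ centre was nearer than 41746 bp. At this one place GR, accessibility and C/EBPβ were all listed, and in vehicle livers neither accessibility nor C/EBPβ was. Over the whole list 3.51% of GR peaks had this combination of a dexamethasone DHS outside vehicle DHS and a C/EBPβ peak after dexamethasone alone.

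The second GR peak of Tdo2, at 81779705, lay in a vehicle DHS of 1334 bp that had 1339 bp after dexamethasone, with no C/EBPβ peak. The third and the fourth, at 81791657 and 81792039, were 382 bp apart. The third had a C/EBPβ peak in both treatments and was wholly inside the vehicle DHS. The fourth had none, and only 26 of its 150 bp lay in that vehicle DHS, which ended at 81792065. After dexamethasone the DHS reached 81792512, 447 bp further, and covered it whole. The count of 7 of 9 GR peaks in vehicle DHS thus includes 1 peak at the edge.

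The fifth and sixth GR peaks, at 81794473 and 81808522, each lay in a vehicle DHS and on a C/EBPβ peak of both lists, with centres 12 and 3.5 bp apart. The seventh and eighth, at 81826475 and 81827126, were a pair 651 bp apart in 1 DHS of 1466 bp after vehicle and 1437 bp after dexamethasone. A C/EBPβ peak of both lists lay between them, from 81826685 to 81826838, and overlapped neither, its centre 211.5 bp from the seventh and 439.5 bp from the eighth. The ninth, at 81831321, lay in a dex-only DHS of 679 bp with no C/EBPβ peak, 3456 bp from the nearest vehicle DHS.

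Sites with several GR peaks were thus found at both loci: 1 of 14 dexamethasone DHS at Tat and 2 of 14 at Tdo2 held 2 GR peaks. Over the whole list 1.03% of dexamethasone DHS held 2 or more. Another GR centre lay within 1 kb of 2 of 9 GR peaks at Tat and 4 of 9 at Tdo2, beside 14.0% of all. Such counts also depend on the number of GR peaks in a window.

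By overlap of at least 1 bp, C/EBPβ lay at more of the GR peaks at Tat than at Tdo2, but within 500 bp the counts at the 2 loci were equal. In vehicle livers it lay at 6 of 9 GR peaks at Tat and 3 of 9 at Tdo2, on either side of the 50.4% of all GR peaks. After dexamethasone the counts were 7 of 9 and 4 of 9, beside 62.0% of all. Each locus gained it at 1 GR peak (11.9% of all GR peaks had a C/EBPβ peak after dexamethasone alone). GR peaks in a vehicle DHS with no C/EBPβ peak in either list numbered 2 of 9 at Tat, which are the close pair, and 4 of 9 at Tdo2, beside 22.0% of all.

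The gain at Tat was at the sixth GR peak of the row. The C/EBPβ peak from 112511790 to 112511940 was in the dexamethasone list only, its centre 37 bp from the GR centre, and in the vehicle list no C/EBPβ centre was nearer than 1335 bp. Unlike the gain at Tdo2, it lay in a DHS that was present after vehicle, 634 bp wide, and 884 bp wide after dexamethasone. At the other 6 Tat GR peaks with C/EBPβ the centres were between 2 and 57.5 bp apart.

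**Figure D3:**
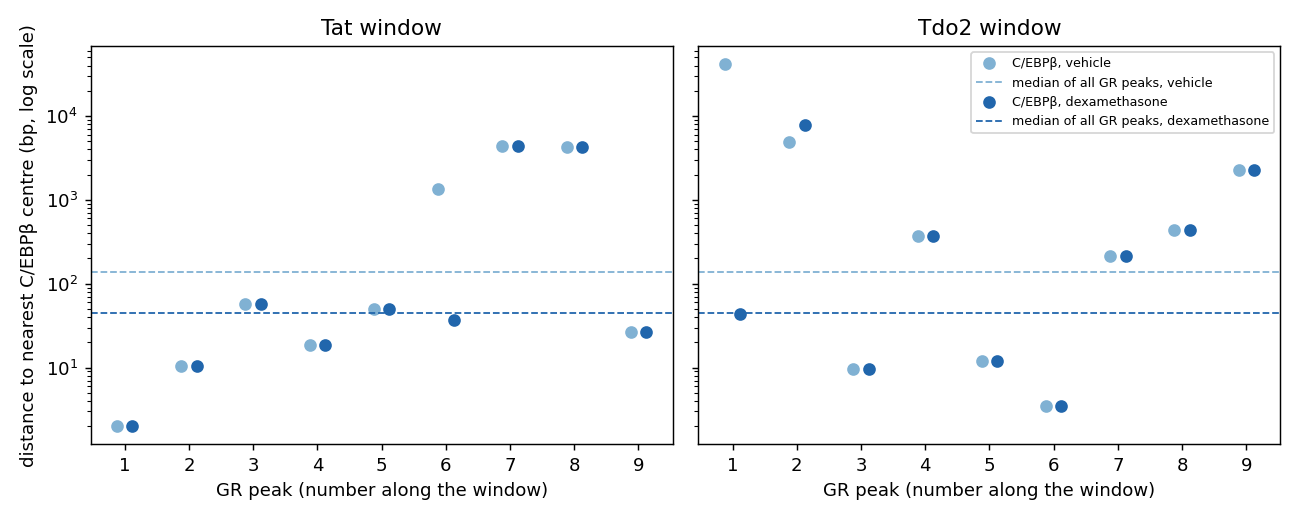
Distance from each GR centre to the nearest C/EBPβ centre (bp, log scale) after vehicle (light) and after dexamethasone (dark), for the GR peaks of each locus numbered along the window; dashed lines are the medians over all GR peaks. Only GR peak 6 of Tat and GR peak 1 of Tdo2 were nearer to a C/EBPβ centre after dexamethasone, and GR peak 2 of Tdo2 was farther. The lists give C/EBPβ peaks of both treatments the same coordinates, so a distance can differ only where a peak is in 1 list alone.

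The distance to the nearest vehicle C/EBPβ centre had a median of 50 bp at Tat and 372.5 bp at Tdo2, beside 137 bp for all GR peaks (quartiles 18 and 6688 bp). For the dexamethasone list the medians were 37 bp, 211.5 bp and 45 bp. At Tdo2 the distances of the 3 GR peaks between 211.5 and 439.5 bp from a C/EBPβ centre decide how it is counted: when intervals within 500 bp counted as sharing a site, C/EBPβ was at 6 of 9 GR peaks after vehicle and 7 of 9 after dexamethasone, the same counts as at Tat under either rule.

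Seen from C/EBPβ, 8 of 9 peaks at Tat and 7 of 9 at Tdo2 were in both treatments. Peaks after dexamethasone alone were 1 of 9 at Tat and 1 of 8 at Tdo2, beside 20.0% of all in that list, and both were at a GR peak. Of the vehicle list, 0 of 8 peaks at Tat and 1 of 8 at Tdo2 were absent after dexamethasone, beside 10.6% of all. The one at Tdo2 (81784635 to 81784785) overlapped no DHS and no GR peak. A GR peak lay at 7 of 9 dexamethasone C/EBPβ peaks at Tat and 4 of 8 at Tdo2, beside 28.6% of all. These shares too follow in part from the number of GR peaks in the windows. A vehicle DHS held 7 of 8 vehicle C/EBPβ peaks at Tat and 6 of 8 at Tdo2, beside 82.9% of all.

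C/EBPβ peaks without GR were of several kinds. At Tat there were 2 in both treatments, from 112502469 to 112502628 in a DHS, with its centre 928.5 bp from a GR centre, and from 112534932 to 112535093 outside any DHS. At Tdo2 there were 5, of which 4 were in both treatments. Of these, the peak from 81829075 to 81829229 lay in a dex-only DHS (81828895 to 81829424). C/EBPβ was thus listed there after vehicle, while accessibility was listed after dexamethasone alone.

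More of each window was listed as accessible after dexamethasone. Of the 12 vehicle DHS at Tat and the 10 at Tdo2, 0 were absent after dexamethasone, beside 14.9% of all vehicle DHS. Both counts of DHS are small, and a difference from that share was not tested. The bases in DHS went from 10231 to 14448 at Tat, 1.41 times as many, and from 10830 to 14606 at Tdo2, 1.35 times as many. The gain at Tat was not even along the window. Of its 4217 added bases, 1080 were in the wide DHS of the GR pair and 1589 in the dex-only DHS beside it. Over the whole lists the ratio was 1.11. The spread of this ratio over windows of equal size was not computed, and a difference of either locus from the whole lists was not tested.

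Dex-only DHS were 2 of 14 at Tat and 5 of 14 at Tdo2, beside 23.8% of all dexamethasone DHS. The 2 at Tat (112514924 to 112515451, and the site of 1589 bp beside the wide DHS) held 0 GR peaks. Of the 5 at Tdo2, those from 81742783 to 81743291 and from 81831091 to 81831770 held the first and the ninth GR peak, and the one from 81828895 held the C/EBPβ peak of both treatments. The remaining ones, from 81776051 to 81776499 and from 81785876 to 81786487, held 0 peaks of either factor. Dex-only DHS made up 2116 of the 4217 added bases at Tat and 2775 of the 3776 at Tdo2.

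The rest of the added bases was the net change in width of DHS that overlapped between the lists. DHS overlapping each other and no other DHS could be matched between the lists at 12 sites at Tat and 8 at Tdo2. A matched DHS counted as holding a GR peak when its dexamethasone interval overlapped one. A DHS that reached a GR peak only in the dexamethasone list was thus counted with GR. At Tat 7 of 8 matched DHS that held a GR peak had a greater width after dexamethasone, as did 1 of 4 that held none, beside 70.8% and 46.7% of all matched DHS with and without GR. The median log2 of the width after dexamethasone over that after vehicle was 0.37 with GR (8 DHS, quartiles 0.13 and 0.48) and -0.04 without (4 DHS). The medians over all matched DHS were 0.12 with GR (quartiles -0.02 and 0.33) and -0.02 without. At Tdo2 4 of 5 matched DHS with GR and 2 of 3 without were wider, with median log2 ratios of 0.05 in both groups. These groups are small, and a departure of either locus from the values over all matched DHS was not tested.

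**Figure D4:**
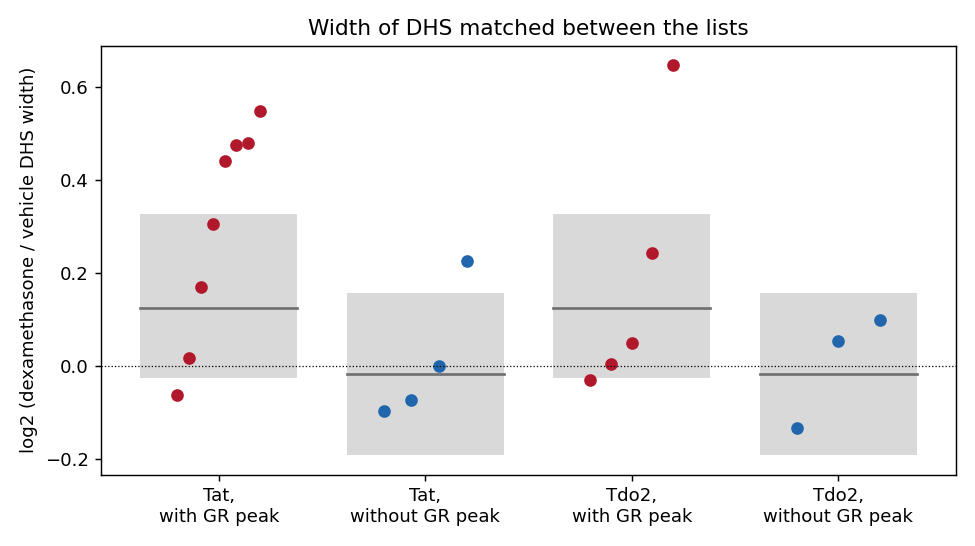
Log2 ratio of dexamethasone over vehicle width for each matched DHS of the 2 loci, with and without a GR peak (points); the grey band and line are the quartiles and the median over all matched DHS of that kind. At Tat 4 of the 8 DHS with GR lie above the band, and at Tdo2 1 of 5 does.

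The change in DHS width at Tat was not uniform along the row of GR peaks. The DHS of GR peaks 1, 3, 4 and 6 went from 856 to 1058 bp, from 703 to 955 bp, from 626 to 871 bp and from 634 to 884 bp, each with both edges farther out. The DHS of GR peak 2 went from 828 to 793 bp and that of GR peak 5 from 864 to 875 bp. GR peaks 1 to 5 all had C/EBPβ in both treatments, and GR peak 6 after dexamethasone alone. One DHS without GR (112516645 to 112517379) had the same coordinates in both lists.

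At Tdo2 the DHS of the GR pair at 81791657 and 81792039 had the highest log2 ratio of either locus, 0.65, from 665 to 1041 bp. The DHS of the pair at 81826475 and 81827126 had -0.03, the lowest of the 5 matched DHS with GR at Tdo2. The lowest of all 8 was -0.13, at a DHS without GR (81787296 to 81787954 after vehicle). The widest site of the Tdo2 window held 0 GR peaks and 0 C/EBPβ peaks. It was listed after vehicle as 2 DHS, from 81758783 to 81759378 and from 81759406 to 81761446 (2040 bp), and after dexamethasone as 1 DHS of 3085 bp, from 81758514 to 81761599, so it has no matched ratio.

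The windows most like each locus in their 5 counts were found by the Euclidean distance over log2(count + 1) in the 5 lists, among autosomal windows of the same size. For Tat they were chr3:78960000-79080000 (distance 0.178, 9 GR peaks, 12 vehicle DHS and 15 dexamethasone DHS), chr1:67080000-67200000 (0.205, 9 GR peaks) and chr19:46680000-46800000 (0.255, 8 GR peaks). For Tdo2 they were chr9:31780000-31920000 (0.279, 9 GR peaks), chr8:112420000-112560000 (0.285, 9 GR peaks) and chr13:94360000-94500000 (0.295, 10 GR peaks). The second of these is a 140-kb window that holds the intervals of Tat, so in counts alone Tat was among the windows nearest to Tdo2.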

How the data were processed

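The authors' deposited values used here are interval positions and running identifiers on mm9, with no other measure per interval. Per the submitters' processing notes, CASAVA 1.8 was used. No source used here names the aligner, the peak caller or its threshold, or says whether replicates were pooled. Positions are printed as in the files and treated as half-open. After 3 duplicate rows were dropped from the dexamethasone DHS list, the lists held 11666 GR peaks (all 150 bp wide), 22714 and 25392 C/EBPβ peaks and 56794 and 63470 DHS (vehicle and dexamethasone). The C/EBPβ lists give peaks of both treatments the same coordinates.

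Intervals belonged to a window by their centre and shared a site when they overlapped by at least 1 bp. Windows of equal size were tiled from the start of each of the 19 autosomes to its last interval, unmappable sequence included, which raises the number of empty windows. All GR peaks, all intervals in 1 treatment's list alone and the widest DHS of each window are named. The members, windows and lists were chosen with earlier results of these data known. A list of amino acid breakdown genes was not used, since no mm9 annotation was used here. The 32 samples fall into 16 groups; adenovirus, polymerase II and input samples were not analysed here. Overlap counts of GR peaks equalled those of bedtools 2.31.1, and the code was tested on simulated lists. Python 3.11.15, numpy 2.4.6 and matplotlib 3.10.9 were used.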

Additional observations from a re-analysis of the deposited data

How the results depend on the processing

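No paired analysis was possible because the lists carry no replicate, and for the same reason no replicate could be left out. Of 134 alternative values for 40 results, 106 stayed near the reported value and 28 did not. Near meant counts within 1.5 times and shares of windows within their 95% Wilson interval. For median log2 width ratios it meant a shift below the standard deviation of the locus' own values, which is a loose rule. With windows extended by 50 kb, these medians at Tat were 0.31 with GR and -0.07 without, and those at Tdo2 were unchanged. The number of GR peaks at both loci and the counts in vehicle DHS stayed near under each alternative tried. With intervals within 500 bp counted as sharing a site, dex-only DHS at Tat numbered 1, and GR peaks with C/EBPβ at Tdo2 numbered 6 (vehicle) and 7 (dexamethasone). Shares of windows holding at least as many intervals depended on the windows. Among windows with a vehicle DHS they were, at Tat, 0.659% for GR, 2.92% and 2.84% for C/EBPβ (vehicle and dexamethasone) and 5.04% and 3.83% for DHS, and at Tdo2 0.950%, 4.02%, 5.72%, 13.9% and 5.89%. With windows extended by 50 kb on both sides they were, in the same order, 1.09%, 4.69%, 4.87%, 9.44% and 8.45% at Tat, and 1.84%, 7.63%, 10.2%, 22.5% and 14.6% at Tdo2. The extension added mostly sequence without intervals. With DHS above the median width of their list, the DHS shares (vehicle and dexamethasone) were 0.733% and 0.495% at Tat and 3.71% and 1.33% at Tdo2. With chromosome X included, the vehicle DHS share at Tdo2 was 8.30%. Read depth is unknown, so an interval absent from a list may be one below the authors' threshold.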

Other observations

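Beyond the windows fewer intervals were listed than inside them. The windows were chosen with earlier results of these data known. For scale, the median autosomal window of 120 kb held 0 GR peaks, and 0 C/EBPβ peaks and 1 DHS in each treatment's list. The median window of 140 kb differed only in holding 2 dexamethasone DHS. The flanks below are 50 kb each, shorter than these windows. In the 50 kb on either side of the Tdo2 window the 5 lists held 0 intervals. Around the Tat window they held 1 further GR peak, at chr8:112615902-112616052, which lay on a C/EBPβ peak (112615912 to 112616076) and in a DHS of both treatments. That DHS was 617 bp wide after vehicle and 592 bp after dexamethasone. A second DHS there, from 112588014 to 112588575 after vehicle, held 0 GR and 0 C/EBPβ peaks.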
